A study of Mus musculus with 9 samples.

Results

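Levels of 8 epithelial junction and keratin genes, chosen by symbol from 22180 genes, were examined on 9 mouse arrays. They were the claudin genes Cldn4, Cldn3 and Cldn7, the adhesion genes Epcam and Cdh1, and the keratin genes Krt8, Krt18 and Krt19. The choice was made with genotype levels in these arrays already known, so the genotype values of the 8 genes are given as a description and carry no test. Fibroblasts isolated from mouse embryos had 3 genotypes. WT cells are labelled STING+/+, SKO cells STING-/- (without the membrane adaptor that relays cytosolic DNA detection), and MyD88KO cells MyD88-/- (without an adaptor of most Toll-like receptors). The MyD88 genotype of the WT and SKO cells, the STING genotype of the MyD88KO cells, the mouse strain, the embryo age and the sex are not stated in the labels. Each genotype was left as a mock control, transfected with double-stranded DNA (labelled ISD) or given lipopolysaccharide (LPS), a bacterial cell wall component sensed by Toll-like receptor 4. The ISD and LPS cultures were collected at 6 h, and no time is recorded for the mock controls. The protocol calls the control untreated and does not say whether it received transfection reagent, so ISD differences may include the transfection. Each of the 9 combinations had 1 array, and whether the 3 cultures of a genotype were prepared separately is not stated. Values are signals on a log2 scale (1 unit is 2-fold), and levels are compared between arrays for the same gene only.

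Claudins are membrane proteins that form the strands of tight junctions, and EpCAM is an epithelial adhesion protein that binds claudin 7. Cdh1 encodes E-cadherin, the adhesion receptor of epithelial adherens junctions. Keratin 8, a type II keratin, pairs with the type I keratins 18 and 19 to build the intermediate filaments of simple epithelia. Fibroblasts rely mainly on vimentin filaments and N-cadherin, and transcription factors of the Snail and ZEB families repress Cdh1 and other epithelial genes through E-box sequences, while Grainyhead-like factors activate several of them.

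Upstream sequences are shown for the neighbouring claudin pair, for the neighbouring keratin pair and for Epcam. Each pair was picked because its members differed in the size or direction of the MyD88KO difference. Epcam was picked because it alone held the second motif searched. No other protein-coding gene lies between Cldn3 and Cldn4 on chromosome 5, or between Krt8 and Krt18 on chromosome 15, in the RefSeq table. The sequences are the 250 bases before the RefSeq start site (GRCm38.p6), 5′ to 3′ on the gene's strand. Capitals mark CAGGTG or its reverse complement CACCTG, the E-box form bound by Snail and ZEB factors, and ACCGGT, the centre of the Grainyhead-like site, which reads the same on both strands.
Cldn4 (chr5:134946935-134947184, minus strand): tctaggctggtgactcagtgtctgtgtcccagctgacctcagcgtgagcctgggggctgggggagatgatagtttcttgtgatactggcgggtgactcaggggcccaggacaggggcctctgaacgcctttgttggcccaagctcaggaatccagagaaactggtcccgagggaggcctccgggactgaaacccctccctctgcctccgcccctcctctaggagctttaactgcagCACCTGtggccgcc
Cldn3 (chr5:134985964-134986213, plus strand): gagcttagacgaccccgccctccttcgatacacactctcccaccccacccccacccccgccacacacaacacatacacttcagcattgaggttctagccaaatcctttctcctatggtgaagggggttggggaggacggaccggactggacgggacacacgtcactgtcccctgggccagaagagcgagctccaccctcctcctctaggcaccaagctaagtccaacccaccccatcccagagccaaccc
Krt8 (chr15:102004343-102004592, minus strand): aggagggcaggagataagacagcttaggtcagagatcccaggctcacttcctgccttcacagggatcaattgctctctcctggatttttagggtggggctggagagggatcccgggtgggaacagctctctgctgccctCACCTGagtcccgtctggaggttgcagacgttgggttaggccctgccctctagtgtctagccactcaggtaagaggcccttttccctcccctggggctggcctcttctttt
Krt18 (chr15:102027966-102028215, plus strand): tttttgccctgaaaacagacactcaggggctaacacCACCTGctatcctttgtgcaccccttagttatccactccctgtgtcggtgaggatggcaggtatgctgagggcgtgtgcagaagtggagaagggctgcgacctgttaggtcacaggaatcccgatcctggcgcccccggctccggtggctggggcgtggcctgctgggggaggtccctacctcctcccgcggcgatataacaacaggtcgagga
Epcam (chr17:87635729-87635978, plus strand): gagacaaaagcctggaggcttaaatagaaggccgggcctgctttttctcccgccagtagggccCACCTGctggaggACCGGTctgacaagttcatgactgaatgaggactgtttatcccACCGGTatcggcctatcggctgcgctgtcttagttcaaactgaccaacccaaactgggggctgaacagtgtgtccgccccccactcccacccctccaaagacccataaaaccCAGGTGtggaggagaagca

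RefSeq promoters, from 250 bases before to 50 after a start site, were found for 6 of the 8 genes, all but Cdh1 and Krt19. They comprised 7 promoters, 2 of them of Cldn7. CAGGTG on either strand was present in 6 of the 7, all but 1 of the Cldn7 promoters, and in 20.2% of the 32851 promoters of the same length. In Cldn4 one match began 14 bases before the start site (actgcagCACCTGtggccgc) and another at base 12 after it (cttgttgCAGGTGcaggcag). The only Cldn3 match began at base 32 after the start site (ccacaggCAGGTGcaggggc). ACCGGT was found in Epcam, with 2 matches, and in none of the other 5 genes, against 2.33% of all promoters. The matches describe these letters only. The member promoters had a GC content of 52% to 62.3%, and the median of all promoters was 52.7%.

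The arrays were checked against their labels. Sting1, which encodes STING, had signals of 3.78 to 4.60 in SKO and of 8.54 to 9.32 on the other 6 arrays. Myd88 had signals of 6.99 to 8.21 in MyD88KO and of 7.52 to 8.95 elsewhere, and whether its probes lie in the deleted part is not stated, so it checks nothing. Vim (12.64 to 12.70) and Col1a2 (10.42 to 11.23), 2 of 14 listed markers of fibroblasts, were bright on all 9 arrays. Others of that list were not, as Pdgfra had signals of 5.69 to 8.55 and Lum of 3.02 to 4.53. Of 23 epithelial regulator and surface genes measured, 13 reached 4.44, the median of all values, on at least 1 array and 10 did not. Klf5 (7.64 to 8.14), Esrp2 (5.97 to 7.0), Grhl3 (4.63 to 5.78) and Ovol2 (4.90 to 5.02) were above it on all 9 arrays. Below it throughout, Grhl2 had signals of 4.01 to 4.32, Esrp1 (an epithelial splicing factor) of 2.90 to 3.19, Ovol1 of 3.82 to 4.25 and Trp63 of 3.66 to 3.99.

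Y-linked transcripts, looked at after values had been seen, separated the genotypes. Uty had signals of 6.02 to 6.40 in WT and SKO and of 3.01 to 3.07 in MyD88KO, Eif2s3y of 7.07 to 7.62 and 3.20 to 4.56, and Kdm5d of 4.14 to 4.86 and 2.52 to 2.68. Xist, the transcript of the inactive X chromosome, had signals of 7.01 to 7.53 in WT and SKO and of 8.71 to 9.02 in MyD88KO. The MyD88KO arrays thus also differ from the others in sex-linked transcripts, and the knockout, the sex of the embryos and the cell preparation cannot be told apart in any value of MyD88KO against WT or SKO below.

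Cldn4, a claudin of tight junctions, was far lower in MyD88KO than in either other genotype. Its signals with mock, ISD and LPS were 8.43, 8.96 and 8.77 in WT, 8.44, 8.64 and 8.44 in SKO, and 4.92, 4.97 and 4.91 in MyD88KO. All 3 MyD88KO arrays lay below all 6 others, with no overlap. Nothing is read from a lack of overlap here or below, because the genes were chosen with genotype levels known. The mean difference from WT was -3.78 ± 0.25 (SD over 3 treatments), a 13.8-fold lower signal, and from SKO -3.57 ± 0.09, an 11.9-fold lower signal. The MyD88KO signals lie near 4.44 and, without detection calls, may be at background, so these are folds of signal and not of transcript. Of 14737 genes at or above 4.44 on at least 1 array, Cldn4 ranked 2 from the lowest for the difference from WT and 6 for that from SKO. WT and SKO overlapped, with a mean SKO minus WT difference of -0.21 ± 0.19.

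The other claudins differed far less. Cldn3, another barrier claudin, had signals of 6.64, 6.94 and 6.88 in WT, 6.55, 6.55 and 6.60 in SKO, and 5.96, 6.16 and 5.97 in MyD88KO. The MyD88KO arrays were again the lowest 3, without overlap, and SKO lay just below WT. The mean difference was -0.79 ± 0.12 from WT (1.73-fold lower) and -0.54 ± 0.13 from SKO (1.46-fold lower). Cldn7 had signals of 3.69, 3.92 and 3.67 in WT, 3.62, 3.65 and 3.54 in SKO, and 4.39, 3.76 and 3.30 in MyD88KO. All were under 4.44, and the MyD88KO arrays spanned both other genotypes.

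The adhesion genes showed no genotype pattern. Epcam had signals of 3.26, 3.30 and 3.25 in WT, 3.09, 2.97 and 3.27 in SKO, and 3.23, 3.24 and 3.30 in MyD88KO, all under 4.44. Cdh1 had signals of 5.08, 4.96 and 5.03 in WT, 5.03, 4.96 and 5.04 in SKO, and 5.03, 4.84 and 4.95 in MyD88KO. The genotypes overlapped in both genes. The MyD88KO minus WT differences were -0.01 ± 0.05 for Epcam and -0.08 ± 0.04 for Cdh1 (SD over 3 treatments). A second Cdh1 probe set was dimmer, at 2.29 to 2.93. Without detection calls, signals this low may be background.

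Among the keratins, Krt18 was lower in MyD88KO than in the other genotypes, while its partner Krt8 differed little. Krt18 had signals of 7.53, 7.16 and 7.47 in WT, 7.09, 6.95 and 6.97 in SKO, and 6.60, 5.94 and 6.41 in MyD88KO. The 3 genotypes did not overlap, in the order WT, SKO, MyD88KO. The MyD88KO signal was lower by a mean difference of -1.07 ± 0.14 than WT (2.1-fold) and of -0.69 ± 0.28 than SKO (1.61-fold), and the SKO minus WT difference was -0.38 ± 0.15. A second, dimmer Krt18 probe set, at 4.19 to 5.48, gave -0.81 ± 0.14 from WT and -0.34 ± 0.10 from SKO.

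Krt8 had signals of 5.88, 5.88 and 5.89 in WT, 5.68, 5.88 and 5.86 in SKO, and 6.05, 6.03 and 5.96 in MyD88KO. Here MyD88KO was the highest genotype by a small margin, 0.13 ± 0.05 above WT and 0.21 ± 0.14 above SKO. Krt19, the other type I keratin, had signals of 7.20, 7.11 and 7.06 in WT, 6.50, 6.71 and 6.38 in SKO, and 6.77, 6.34 and 6.76 in MyD88KO. WT stood above both knockouts, which overlapped each other. The mean difference from WT was -0.59 ± 0.18 for SKO and -0.50 ± 0.24 for MyD88KO.

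**Figure D1:**
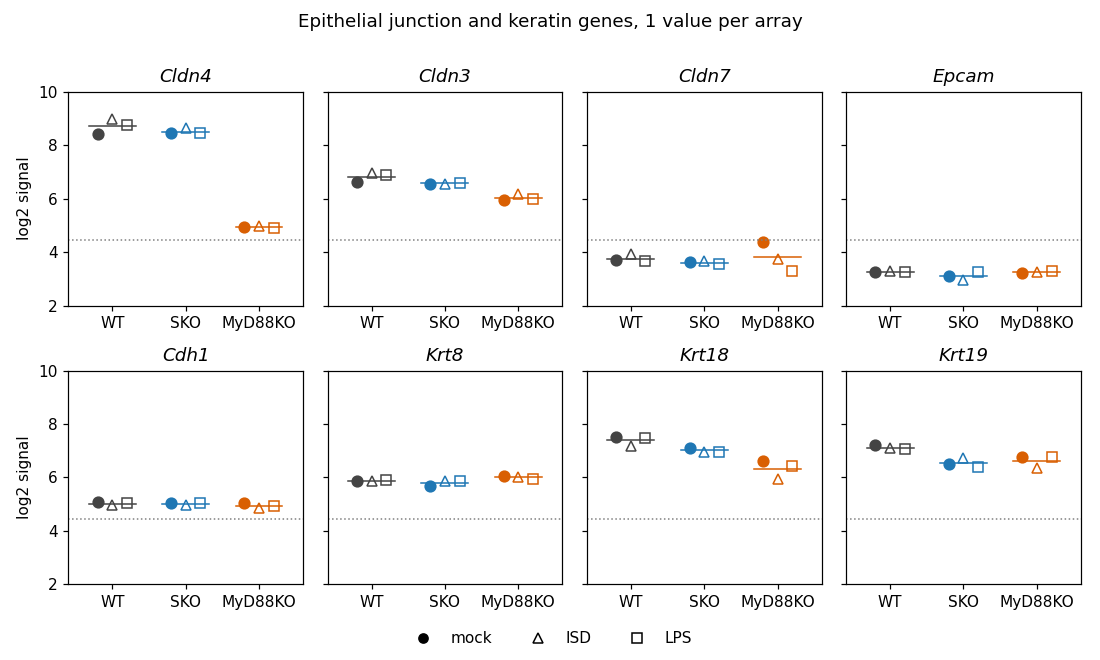
Log2 signal (vertical axis) of the 8 genes in WT, SKO and MyD88KO cells, with 1 point per array, the treatment given by the marker, the mean of the 3 arrays of a genotype as a line, and the median of all values (4.44) dotted. Cldn4 lies between 8.43 and 8.96 in WT and SKO and between 4.91 and 4.97 in MyD88KO, while Epcam and Cldn7 stay under the dotted line. Heights are not comparable between genes.

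Counted array against array, 6 of the 8 genes could be counted in each comparison, since Cldn7 and Epcam never reached 4.44. With mock, 1 of the 6, Cldn4, was at least 2-fold lower in MyD88KO than in WT, against 1.6% of all genes, and 1 was lower than in SKO, against 2.31%. With ISD these counts were 2 against WT (Cldn4 and Krt18), where 1.69% of all genes were lower, and 2 against SKO, where 2.57% were. With LPS they were 2 against WT, where 1.88% were lower, and 1 against SKO, where 2.1% were. None of the 6 was at least 2-fold higher in MyD88KO, where with mock, ISD and LPS 1.89%, 2.12% and 2.21% of all genes were higher than in WT and 2.11%, 4.36% and 2.58% higher than in SKO. None differed 2-fold between SKO and WT, where 0.766%, 0.659% and 0.467% of all genes were higher and 0.165%, 1.83% and 0.244% lower in SKO. The genotype comparisons were those the genes were chosen with, and nothing is read from these counts. The median difference of all 8 from WT was -0.24 with mock, -0.46 with ISD and -0.33 with LPS, and that of all genes was between -0.01 and 0.

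**Figure D2:**
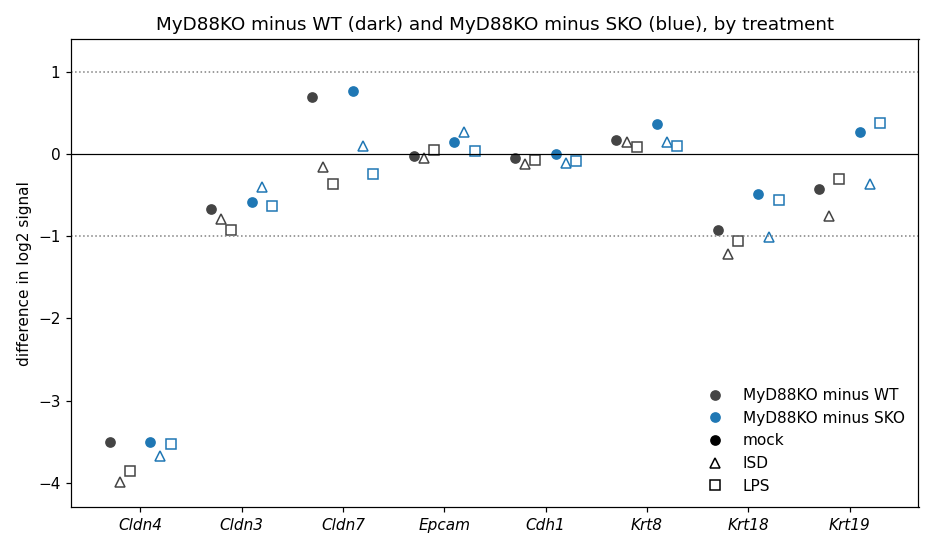
Difference in log2 signal of MyD88KO from WT (dark) and from SKO (blue) for each gene, with 1 point per treatment and dotted lines at 2-fold. The 6 Cldn4 points lie between -3.99 and -3.50, Krt18 lies between -1.22 and -0.49, and Krt8 lies between 0.08 and 0.37.

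None of the 6 genes bright enough to be tested passed the additive test for a change with either stimulus, and Krt18 passed for ISD in another model. The change with ISD or LPS was not used to choose them and was tested in limma over all arrays, with genotype and treatment as additive terms. That fit called 0 of the 6 genes tested for ISD and 0 for LPS, and 0% of all 14737 genes for either, with 2189 (14.9%) and 697 (4.73%) at an unadjusted p under 0.05. A fit with an ISD effect shared by WT and MyD88KO, the genotypes with a high Sting1 signal, called 1114 genes for ISD (7.56%, of which 5.27% higher and 2.29% lower). Its LPS effect, shared by WT and SKO, called 49 (0.332%, of which 0.326% higher and 0.00679% lower). This shared-effect fit, with 2 residual degrees of freedom, is given because the planned additive fit called 0 genes. No counted gene moved 2-fold from mock in any genotype. With ISD 1.94% of all genes were 2-fold higher in WT, 0.143% in SKO and 3.31% in MyD88KO, and 0.101%, 0.00716% and 0.371% were lower. With LPS 0.864%, 0.536% and 0.595% were higher and 0.072%, 0.0143% and 0.0573% lower, in the same order.

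Krt18 had the largest fitted change with ISD among the 6. Its difference from mock was -0.37 in WT, -0.14 in SKO and -0.65 in MyD88KO. It was lower with ISD in 3 of 3 genotypes. The fitted change over the genotypes was -0.39 ± 0.10 (SE), which did not pass (limma adjusted p = 0.273). The shared effect of WT and MyD88KO was -0.51 ± 0.10 and passed (limma adjusted p = 0.0265), where 7.56% of all genes did. The additive fit without the SKO ISD array gave -0.51 (limma adjusted p = 0.0126) and called 1335 genes in all. It rests on the same WT and MyD88KO ISD arrays, so it is not a separate result. The limma adjusted p lay between 0.0126 and 0.775 over the alternatives, the highest without the MyD88KO mock array (-0.30). The second probe set changed by -0.08 in WT, -0.49 in SKO and -0.32 in MyD88KO. Its largest fall was thus in SKO, which the shared effect leaves out, and its smallest in WT. With LPS the Krt18 differences were -0.06, -0.12 and -0.18.

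Cldn4 differed from mock with ISD by 0.53 in WT, 0.20 in SKO and 0.05 in MyD88KO, where its signal was low throughout. The fitted change was 0.26 ± 0.10 (limma adjusted p = 0.296). With LPS the differences were 0.35, 0.00 and -0.01. Cldn3 differed with ISD by 0.31, 0.00 and 0.19 (fitted 0.17 ± 0.08, limma adjusted p = 0.402) and with LPS by 0.25, 0.05 and 0.00. In both genes the WT value was the largest of the 3 for each stimulus, and the difference between genotypes was not tested.

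Krt19 differed from mock with ISD by -0.10 in WT, 0.21 in SKO and -0.43 in MyD88KO, so the sign was not shared. Its fitted change was -0.10 ± 0.14 (limma adjusted p = 0.76). Krt8 and Cdh1 changed by no more than 0.20 in any genotype with either stimulus, and Epcam by no more than 0.18. Cldn7 differed by -0.63 with ISD and -1.09 with LPS in MyD88KO, from a mock signal of 4.39, and by between -0.08 and 0.22 in the other genotypes. These Cldn7 signals are all under the median, and the value rests on 1 mock array.

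**Figure D3:**
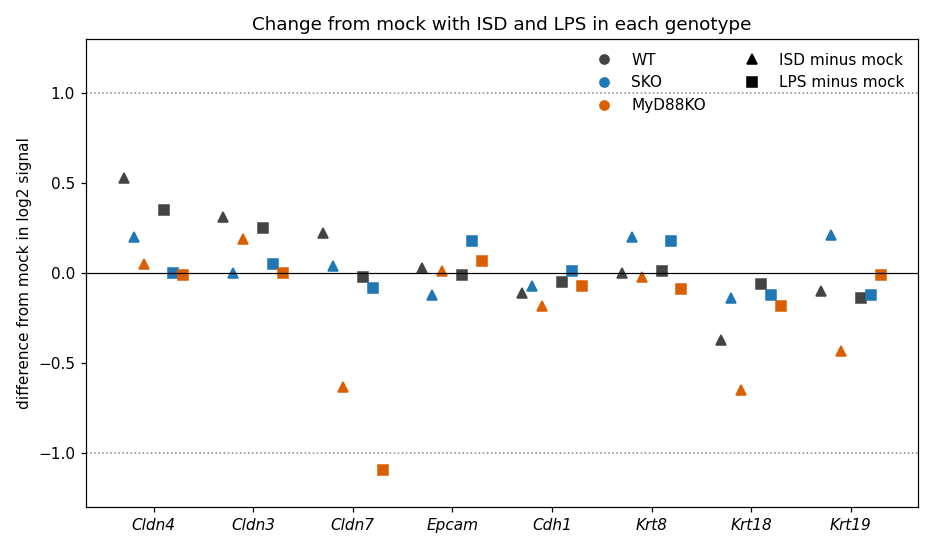
Difference from mock in log2 signal with ISD (triangles) and LPS (squares) for each gene, coloured by genotype, with dotted lines at 2-fold. Points lie between -0.65 and 0.53 but for Cldn7 with LPS in MyD88KO at -1.09.

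Other epithelial genes were taken from 4 lists, of tight junction, adherens junction and desmosome, keratin, and epithelial regulator and surface genes. Of 73 measured, 49 reached 4.44 on at least 1 array and were tested in limma between genotypes. In MyD88KO against WT 13 were lower and 2 higher, where 10.8% of all genes were lower and 8.69% higher. Against SKO 15 were lower and 2 higher, where 14.1% and 12.5% were. Both comparisons use the same MyD88KO arrays. The lists were chosen with earlier results of these data known, so their genotype counts are given as a description. The same holds for the fitted genotype differences and adjusted p of listed genes in what follows. Most of those genes were named for the size of that difference, and passing means only an adjusted p under 0.05. The median fitted difference of the 49 was -0.02 from WT and -0.06 from SKO, and that of all genes tested was -0.01 in both. For ISD and LPS 0 of the 49 passed in the additive limma fit. That fit called 0% of all genes for either, so nothing is read from this count. In SKO against WT 1 of 49 passed, where 1.13% of all genes were lower and 1.19% higher.

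Perp and Dsp, both of desmosomes, had the largest differences of the 49 from WT. Perp, a tetraspan membrane protein of desmosomes and a p53 target, had signals of 8.68, 9.30 and 8.95 in WT, 8.53, 8.84 and 8.78 in SKO, and 5.88, 6.29 and 5.75 in MyD88KO. The fitted difference of MyD88KO from WT was -3.00 ± 0.10 on the log2 scale (± SE here and in what follows), with a limma adjusted p of 8.11e-06. Dsp, which encodes desmoplakin, the link from desmosomes to keratin filaments, had signals of 6.98, 7.05 and 6.77 in WT, 6.16, 6.19 and 6.17 in SKO, and 4.62, 4.85 and 4.49 in MyD88KO. It was lower than in WT both in MyD88KO (-2.28 ± 0.09, limma adjusted p = 1.23e-05) and in SKO (-0.76 ± 0.09, 0.00788). Jup, plakoglobin, fell less, by 0.57 on the log2 scale (limma adjusted p = 0.00191). Cdh3, P-cadherin, and Pkp1, a desmosomal plakophilin, were higher in MyD88KO than in WT, by 1.28 ± 0.19 (limma adjusted p = 0.00317) and 1.08 ± 0.13 (0.0013). Against SKO the fitted differences of Perp, Dsp, Jup, Cdh3 and Pkp1 were -2.74, -1.52, -0.25, 1.75 and 0.97, and all 5 passed.

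Of 14 tight junction genes tested 3 were lower and none higher in MyD88KO than in WT, where 10.8% of all genes were lower and 8.69% higher. F11r, the junctional adhesion molecule A, differed by -1.22 ± 0.20 (limma adjusted p = 0.00521), with MyD88KO signals of 6.26, 7.40 and 6.49 against 7.67, 8.16 and 7.97 in WT. Cldn1, the claudin of the skin barrier, differed by -0.73 ± 0.14 (0.0101) and Cldn9 by -0.33 ± 0.09 (0.0388). Cldn9 signals were low on all arrays, at 4.63 to 5.24, and may be at background. Another 7 members, Cldn2, Cldn5, Cldn6, Cldn8, Cldn10, Cldn15 and Marveld2, never reached 4.44. Of 6 other keratins tested Krt20 was lower (-0.69 ± 0.08, limma adjusted p = 0.0011), and Krt7, a simple epithelial keratin, did not pass (-0.39 ± 0.14, 0.0998).

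Of 13 regulators and surface genes tested 6 were lower in MyD88KO than in WT, where 10.8% of all genes were lower and 8.69% higher. They included St14, the membrane protease matriptase (-1.33 ± 0.09, limma adjusted p = 9.65e-05), Cd24a, a surface glycoprotein (-1.31 ± 0.08, 5.71e-05), Spint2, an inhibitor of matriptase (-1.0 ± 0.13, 0.00186), Esrp2, an epithelial splicing factor (-0.80 ± 0.09, 0.000828), and Erbb3, a receptor of neuregulins (-0.60 ± 0.11, 0.00791). Against SKO the same quantities were -1.34, -1.28, -0.96, -0.39 and -0.56. Among repressors of epithelial genes, Twist2 was higher in MyD88KO than in WT by 1.0 ± 0.15 (limma adjusted p = 0.003), Snai1 by 0.52 ± 0.10 (0.0119) and Snai2 by 0.48 ± 0.10 (0.0158). Against SKO Snai1 (0.38, limma adjusted p = 0.0322) and Snai2 (0.43, 0.0188) passed and Twist2 did not (0.42 ± 0.15, 0.0737). Zeb1 (-0.08 ± 0.08, limma adjusted p = 0.579) and Twist1 (-0.10 ± 0.19, 0.786) did not pass against WT.

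**Figure D4:**
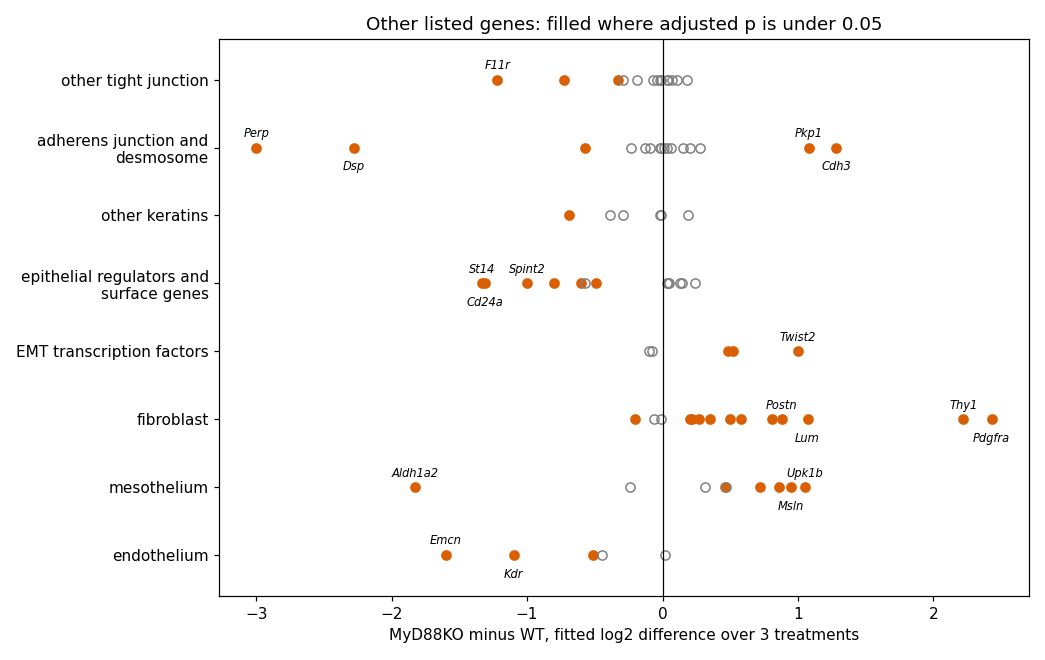
Fitted log2 difference of MyD88KO from WT (horizontal axis) for each tested gene of 8 lists, 1 point per gene, filled where the limma adjusted p was under 0.05. Perp at -3.00 and Dsp at -2.28 lie farthest to the left, Pdgfra at 2.43 and Thy1 at 2.22 farthest to the right.

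Markers of other cell types differed in MyD88KO against WT, where 8.69% of all genes were higher and 10.8% lower. Their lists too were chosen with earlier results of these data known, so their counts and adjusted p between genotypes are likewise a description. Of 14 fibroblast markers 11 were higher and 1 lower in MyD88KO than in WT, led by Pdgfra, a growth factor receptor (2.43 ± 0.13, limma adjusted p = 4.36e-05), and Thy1, a surface glycoprotein (2.22 ± 0.06, 4.74e-06). The mean signal of the list was 9.53 to 9.58 in WT, 9.61 to 9.62 in SKO and 10.13 to 10.27 in MyD88KO. Of 9 markers tested of mesothelium, the keratin-rich lining of body cavities, 5 were higher and 1 lower. Msln, mesothelin, was higher by 0.95 ± 0.12 (0.0016), and Aldh1a2, a retinoic acid enzyme, was lower (-1.83 ± 0.07, 1.43e-05). The mean signal of this list was 5.23 to 5.33 in WT, 5.13 to 5.18 in SKO and 5.49 to 5.71 in MyD88KO.

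Endothelial markers were lower in 3 of 5 tested, among them Emcn, a sialomucin (-1.60 ± 0.09, limma adjusted p = 4.89e-05), with list means of 5.80 to 6.01 in WT, 5.76 to 5.86 in SKO and 5.27 to 5.55 in MyD88KO. Leukocyte markers were higher in 1 of 9 (Lyz2, lysozyme), against 8.69% of all genes. Their list means were 5.98 to 6.26, 6.62 to 6.80 and 6.24 to 6.44 in the same order. In MyD88KO against SKO 1 of the 9 was higher and 5 lower, where 12.5% and 14.1% of all genes were. In SKO against WT 4 of the 9 were higher, against 1.19% of all genes. They included Adgre1, a macrophage surface receptor (1.68 ± 0.15, limma adjusted p = 0.00381). Of the lists for kidney and urinary epithelium, gut and liver epithelium, keratinocytes, trophoblast, and pluripotent and germ cells, 1 of 6 (Emx2, higher), 0 of 9, 0 of 2, 1 of 3 (Gata3, lower) and 0 of 3 tested passed in MyD88KO against WT. Of all genes 8.69% were higher and 10.8% lower in that contrast. Of 7 keratinocyte markers measured, Sfn (6.81 to 7.70) and Col17a1 (4.71 to 5.08) were above 4.44 on all arrays, and Krt14, Krt15, Trp63, Dsg3 and Lgals7 were under it on all. The part of these populations in the Cldn4, Cldn3 and Krt18 differences was not tested. In RNA of whole cultures fewer cells of a type and less RNA per cell cannot be told apart.

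The gene patterns closest to the mean of the 8 centred profiles, by root mean square difference over the 9 arrays, were those of Piezo2 (0.0496), Sh3rf1 (0.0513), Flnc (0.06), Slc38a4 (0.0659), Stard10 (0.0706), Srgap1 (0.0767), Eno3 (0.0801) and Nbea (0.0823). That mean profile stood between 0.29 and 0.36 in WT, between 0.08 and 0.12 in SKO and between -0.51 and -0.30 in MyD88KO, relative to its own average. Of the 8 genes, Cldn3 was the closest to it, at 0.116, and Cldn4 the farthest, at 1.44. The mean profile rests largely on Cldn4, whose own centred values were 1.04 to 1.57 in WT, 1.05 to 1.25 in SKO and -2.47 to -2.42 in MyD88KO. Without Cldn4 the mean of the other 7 genes was 0.18 to 0.19 in WT, -0.06 to -0.04 in SKO and, with mock, ISD and LPS, 0.01, -0.24 and -0.19 in MyD88KO, so the nearest genes listed describe the 8-gene mean only.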

How the data were processed

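Affymetrix MoGene 2.0 arrays were used, and the authors deposited their log2 signals by probe set, made with Affymetrix Expression Console 1.3.1.187 per the submitters' processing notes; no source used here gives the background correction, normalisation or summarisation. Total RNA (300 ng) was labelled, per the labels' protocols. The range of the values gave the log2 scale, and array medians were 4.42 to 4.46, so nothing was rescaled. Of 41345 probe sets, 23521 had 1 gene symbol in the platform table, 1814 several and 16010 none. A gene took its single-symbol probe set with the highest mean, which gave 22180 genes. Krt18 and Cdh1 had a second probe set.

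Array differences were counted at 2-fold where either of the arrays reached 4.44, the overall median. Tests used limma 3.58.1 in R 4.3.3 (lmFit, eBayes with intensity trend) with genotype and treatment as additive terms, 4 residual degrees of freedom, adjusting by Benjamini-Hochberg over the 14737 genes reaching 4.44 on 1 array or more, with calls at an adjusted p under 0.05. The filter favours genes that are high in 1 group. P-values reflect only how these arrays vary, which may be technical, and having few arrays limits the precision. As each genotype and treatment had 1 array, the residual of the additive fit is how treatment differences varied between genotypes, technical variation included. Arrays of different treatments thus stand in as replicates of a genotype. A response that differs between genotypes enters this residual and can raise the P-values. Whether this left ISD without calls in the additive fit was not tested. The fit was checked on simulated data.

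The labels spell the genotype MyD88KO and, in the growth protocol, MyD99KO. The members and lists were chosen with earlier results of these data known. Named genes were the 8 members, the Snail, Twist and ZEB factors, up to 5 genes of each epithelial list and up to 4 of each cell type list with the largest called difference of MyD88KO from WT, and the 8 nearest profiles. Others were named after their values were seen. Some genes of the lists were not analysed here. Alternatives were the prior, the filter, quantile normalisation, the mean of probe sets, each array left out, another response model and the fold threshold.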

Additional observations from a re-analysis of the deposited data

How the results depend on the processing

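No paired analysis was possible because each genotype and treatment had 1 array, so a block on replicate number could not be fitted. Arrays of the same treatment are matched through the treatment term of the additive fit. The counts of other epithelial genes lower in MyD88KO stayed within 1.5 times under each alternative, with 11 to 14 against WT and 11 to 14 against SKO when 1 array was left out. Over all genes, leaving out 1 array gave 1720 to 3501 calls for MyD88KO against WT (2867 with all; 1720 to 1791 without a WT array) and 65 to 471 for SKO against WT (342 with all; 65 to 156 without a WT array, 97 without SKO mock, 126 without SKO LPS and 207 without MyD88KO mock). For ISD the calls were 0 to 1335 with 1 array left out, the highest without the SKO ISD array, and 1114 in the response model, and for LPS 0 to 60, again without the SKO ISD array, and 49. At a 1.5-fold threshold 19 array differences of members were counted, in place of 9. Of the alternative values of the members' mean genotype differences, 78 moved by less than the SD over treatments and 2, both for Cdh1 with the mean of probe sets (-0.02 from WT and 0.08 from SKO), by more. Uncalled changes near 0 turned sign. For ISD these were Krt8 without the SKO mock array (-0.01, range with 1 array left out up to 0.11) and Krt19 without the MyD88KO ISD array (0.08, down to -0.27). For LPS they were Cldn4 without the WT mock array (-0.01, up to 0.20), Krt8 without the SKO mock (-0.04) or SKO LPS array (-0.01), Krt19 without the SKO LPS array (0.01, down to -0.21) and Krt18 with the mean of probe sets (0.02). The cause of these shifts was not tested. No detection calls were used, so Epcam and Cldn7 cannot be told from background.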

Other observations

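Genes with the profile closest to Cldn4 itself, a search added after values were seen, were the Y-linked genes Uty (root mean square difference 0.265 over the 9 arrays) and Eif2s3y (0.399), the X-linked gene Dgkk, a diacylglycerol kinase (0.399), and the desmosome gene Perp (0.404). Next came Rspo3, a secreted activator of Wnt signalling (0.585), Fabp7, a fatty acid binding protein (0.615), 1700007K13Rik (0.665) and Rgs5, a marker of pericytes (0.682). Rgs5 had mean signals of 9.61 in WT, 9.97 in SKO and 4.92 in MyD88KO, and Rspo3 of 7.87, 8.64 and 5.33.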
